A study of Mus musculus with 24 samples.

Results

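The 34 myeloid and macrophage genes described here are transcription factors, receptors and effector proteins of macrophages and other myeloid cells. The rule that names them is a list of symbols and uses no measured value, but the genes were chosen with earlier results of these data known. Their counts beside all genes are therefore descriptions and not tests. All 34 were found among the 21887 protein-coding genes of the RefSeq table for mm10. Chromatin immunoprecipitation with sequencing (ChIP-seq) had been done on mouse small cell lung cancer cells grown from RPP tumours, which lack the tumour suppressors Rb1, Trp53 and Rbl2 in all lines. Lines 236L and 236R came from tumours that carried a guide RNA against Kdm6a (sgKdm6a, Kdm6a-mutant), and lines 159-1 and 1014 from tumours that carried a control guide (sgControl, Kdm6a wild type). The cells were at early passage and were collected 24 h after plating. All 4 lines were profiled for H3K4me1, H3K4me2 and H3K27me3 and only the 2 control lines for the KDM6A protein, which gave 14 broad peak lists, and the 10 input libraries have no list in the files used here. Each genotype is 2 lines. Whether 236L and 236R are from separate animals is not stated in the labels, so differences between genotypes are set against the spread of these lines only.

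Macrophages are phagocytes that take up dead cells, microbes and debris, and they are frequent in lung tumours. Their identity depends on the ETS factor PU.1, made by Spi1, which binds enhancers together with C/EBP and IRF factors, and on signalling through the CSF1 receptor. H3K4me1 marks enhancers, H3K4me2 marks promoters and active enhancers, and H3K27me3 is the repressive mark of Polycomb complex PRC2. KDM6A is a demethylase of H3K27 that also belongs to H3K4 methyltransferase complexes. Small cell lung cancer is a neuroendocrine tumour, and its cells do not normally use the macrophage programme.

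Every value below is the length of the gene window, which is the gene and its flanks of 10 kb, that lies under peaks of a list. It is given in kb or as a percent of the window. The windows of the 34 genes were 21.5 to 144.9 kb long, with a median of 35.2 kb, and 18 of them held a further protein-coding gene, so a peak there need not belong to the named gene. The lists give no read counts, so the depth of the libraries is unknown and a length without a peak is not proof that a mark is absent. A gene was called higher or lower when the lines differed by at least 2 kb. Peaks numbered 71675 to 88582 for H3K4me1, 45544 to 58368 for H3K4me2, 10039 to 52080 for H3K27me3 and 29312 to 38785 for KDM6A. The shortest H3K27me3 list was that of 236L. The deposited names of the 2 control lists of H3K4me2 name each other's line, and the sample labels were followed, which does not touch the comparison of genotypes. No KDM6A list exists here for 236L and 236R, and the mutation itself could not be checked.

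Line 236L is labelled as small cell lung cancer, a neuroendocrine tumour, but differed from the other lines at neuroendocrine genes. Over 16 neuroendocrine genes, H3K4me2 covered on average 14.1% of the window in 236L and 24.2% in 236R, against 24.3% in 159-1 and 26.6% in 1014. The H3K4me2 cover in 236L was reduced but not lost, as all protein-coding genes had 9.86% there and each of the 16 had a peak. H3K4me1 covered 6.43% in 236L and 21.5% in 236R, against 17.5% in 159-1 and 18.4% in 1014. In 236L this was below the 12.3% of all genes, and 4 of the 16 had no H3K4me1 peak. H3K27me3 covered 8.07% of the same windows in 236L and 0% in 236R, against 0% in 159-1 and 0.11% in 1014. For this reason 236L and 236R are given apart throughout, and each result on both mutant lines is given with and without 236L. In a bulk library, a mark in a few cells and a weak mark in all cells cannot be told apart.

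The macrophage genes were covered by long H3K4 methylation peaks in 236L and by shorter ones in the other 3 lines. H3K4me2 covered on average 27.7% of the 34 windows in 236L and 8.22% in 236R, against 10.7% in 159-1 and 10.1% in 1014. Over all protein-coding genes the same mean was 9.86% in 236L and 8.98% in 236R, against 9.94% in 159-1 and 9.64% in 1014. The 3 lines other than 236L thus lay close to the level of all genes, and 236L alone lay far above it. H3K4me1 covered 42.7% in 236L and 11.6% in 236R, against 15.1% in 159-1 and 17.8% in 1014, where all genes had 12.3, 9.57, 9.14 and 10.3% in the same order of lines. Every one of the 34 genes had an H3K4me1 and an H3K4me2 peak in 236L, where 76% and 79.2% of all genes had one.

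H3K4me2 was higher in 236L than in 236R at 29 of the 34 genes and lower at 0, where 13.8% and 8.14% of all genes were called higher and lower. For H3K4me1 the counts were 32 higher and 0 lower, where 30.8% of all genes were higher and 17.4% lower. The 5 genes not called for H3K4me2 were Cx3cr1, Fcgr1, Aif1, Cebpa and Irf5, and the 2 not called for H3K4me1 were Cebpa and Laptm5. Against both control lines, 236L was higher at 30 genes for H3K4me2 (10.3% of all genes) and at 31 for H3K4me1 (29.7% of all genes). The median difference between 236L and 236R over the 34 genes was 6.77 kb for H3K4me2 and 11.6 kb for H3K4me1, and over all genes it was 0 kb for both marks. Ranked among all 21887 genes by this difference in H3K4me2, 8 of the 34 were in the top 1% and 25 in the top 5%. For H3K4me1 these counts were 1 and 13. The ranking is by kb and was not adjusted for window length. These are comparisons of a single library with a single library, and no p-value is given for them.

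**Figure D1:**
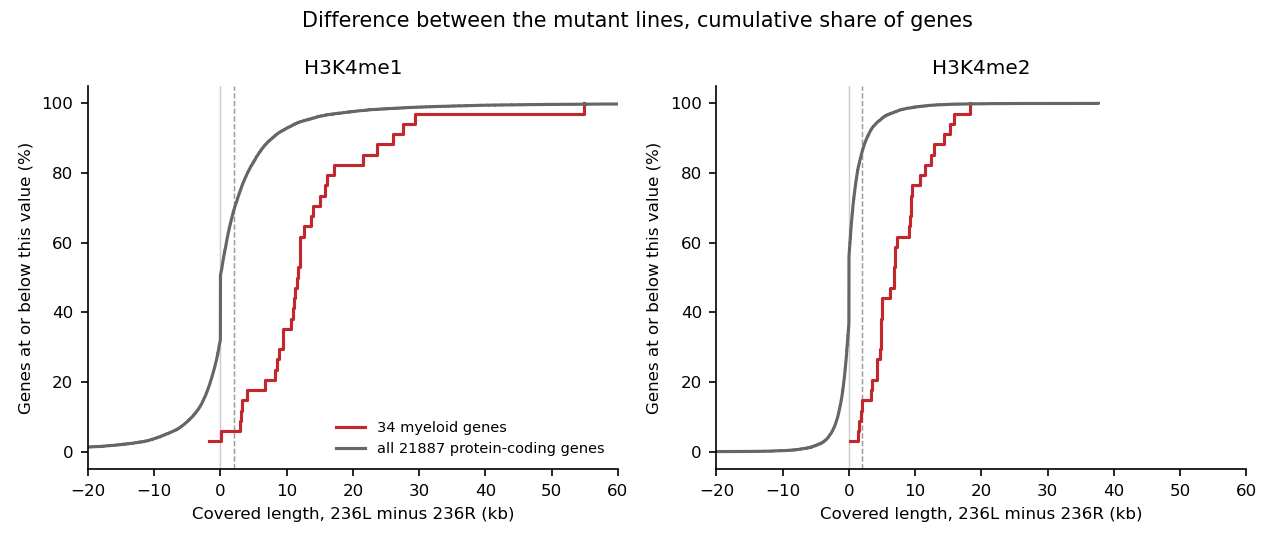
Cumulative share of genes (%) by the covered length in 236L minus that in 236R (kb), for the 34 macrophage genes (red) and all 21887 protein-coding genes (grey), with H3K4me1 on the left, H3K4me2 on the right and the 2 kb call marked by a dashed line. The red curves lie to the right, with medians of 11.6 and 6.77 kb where those of all genes are 0 kb.

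The difference was present in windows with and without neighbouring genes. Among the 16 genes whose window holds no other protein-coding gene, H3K4me2 was higher in 236L than in 236R at 13, with a median difference of 5.9 kb, and among the 18 genes with a neighbour it was higher at 16, with a median of 6.87 kb. The 3 C1q genes lie side by side, and most peaks in the window of each are also in the windows of its neighbours. With overlapping windows merged the 34 genes make 32 loci, of which 27 were higher in 236L for H3K4me2.

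**Figure D2:**
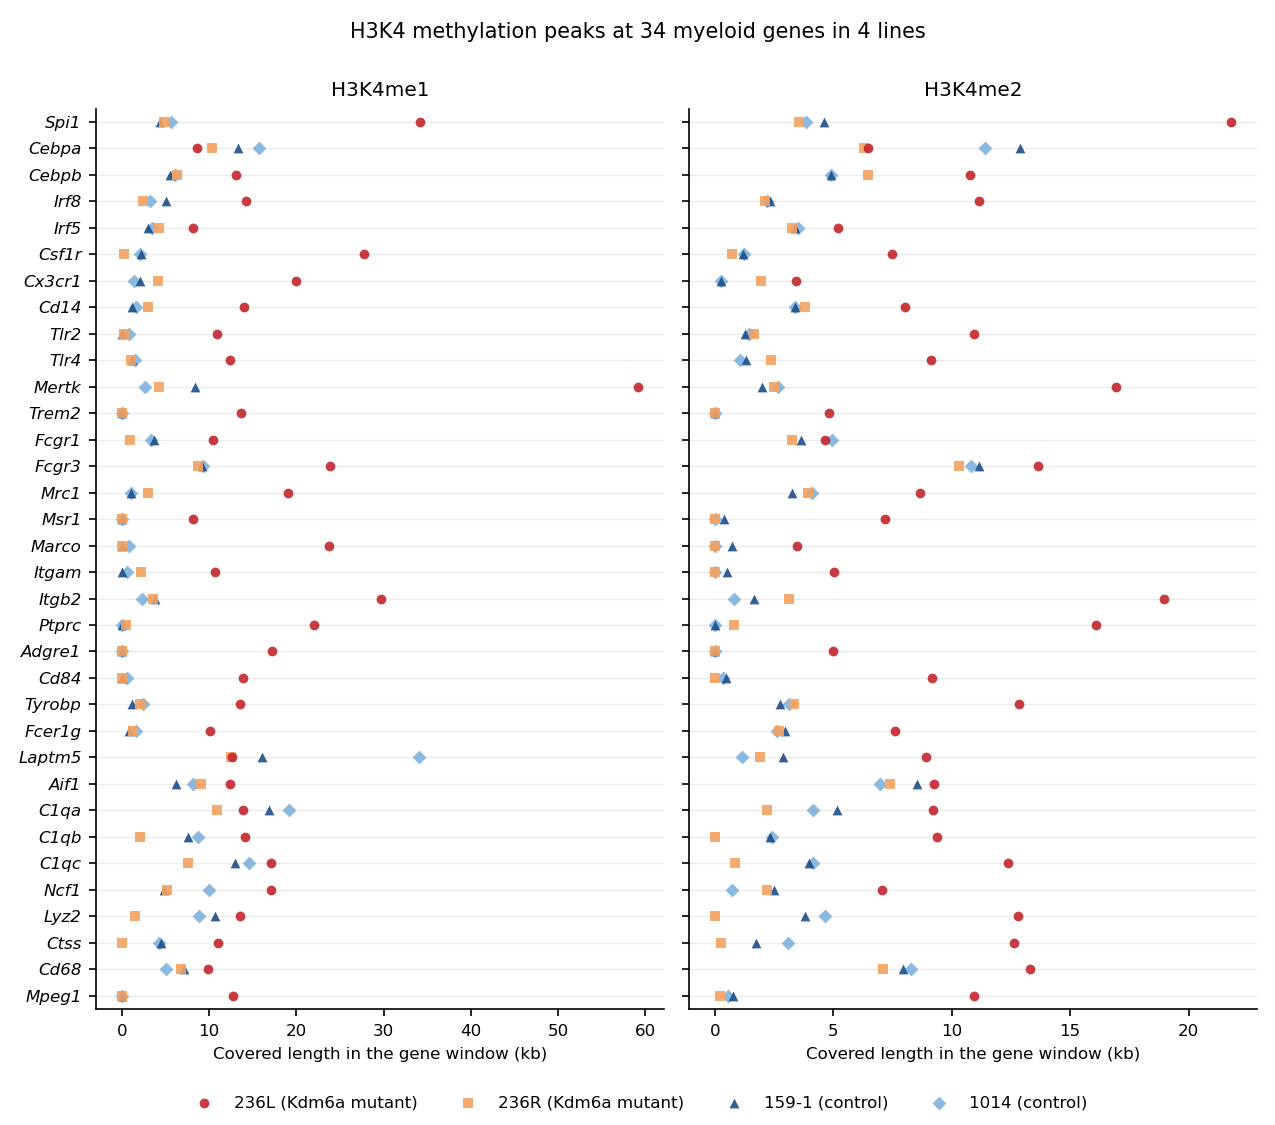
Covered length (kb) of the 34 gene windows by H3K4me1 (left) and H3K4me2 (right), with a symbol for each line. The red points of 236L lie right of the other 3 lines at most genes, and exceptions such as Cebpa (H3K4me2 of 6.46 kb in 236L and 12.9 kb in 159-1) stand out.

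Of the 5 transcription factors, Spi1 stood highest. Spi1 encodes PU.1, and H3K4me2 covered 21.8 kb of its window in 236L and 3.55 kb in 236R, against 4.61 kb in 159-1 and 3.83 kb in 1014. The difference of 18.3 kb between the mutant lines ranked 31 among all genes. Its H3K4me1 cover was 34.2 kb in 236L and 4.77 kb in 236R, against 4.39 kb in 159-1 and 5.63 kb in 1014. The window of Spi1 reaches into Mybpc3, a muscle gene. Irf8, a factor of monocyte and dendritic cell development, had 11.2 kb of H3K4me2 in 236L and 2.12 kb in 236R, against 2.34 kb in 159-1 and 2.19 kb in 1014. At both genes 236L stood alone and the other 3 lines lay together.

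The other factors differed less or in another way. Cebpb, a C/EBP factor of macrophage activation that many other cells also use, had 10.8 kb of H3K4me2 in 236L and 6.48 kb in 236R, against 4.89 kb in 159-1 and 4.90 kb in 1014. Irf5, a factor downstream of Toll-like receptors, had 5.19 kb in 236L and 3.25 kb in 236R, against 3.37 kb in 159-1 and 3.52 kb in 1014, a difference under 2 kb. Cebpa, which drives early myeloid differentiation and is also a factor of lung epithelium and liver, went the other way. Its H3K4me2 cover was 6.46 kb in 236L and 6.27 kb in 236R, against 12.9 kb in 159-1 and 11.4 kb in 1014. H3K4me1 covered 8.60 kb of the Cebpa window in 236L and 10.3 kb in 236R, against 13.3 kb in 159-1 and 15.7 kb in 1014. For Cebpa both mutant lines lay below both control lines in both marks.

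Among surface receptors, Csf1r, the receptor of CSF1 and IL-34 on which macrophages depend for survival, had 27.7 kb of H3K4me1 in 236L and 0.239 kb in 236R, against 2.22 kb in 159-1 and 2.12 kb in 1014. Its H3K4me2 cover was 7.47 kb in 236L and 0.719 kb in 236R, against 1.20 kb in 159-1 and 1.21 kb in 1014. Cx3cr1, the receptor of the chemokine fractalkine, was the single gene called at 2 kb for more H3K4me1 in both mutant lines than in both control lines, at 19.9 kb in 236L and 4.17 kb in 236R, against 2.10 kb in 159-1 and 1.33 kb in 1014. Its H3K4me2 cover was short in every line, from 0.246 kb in 1014 to 3.42 kb in 236L. Ptprc, the phosphatase CD45 found on all nucleated blood cells, had 16.1 kb of H3K4me2 in 236L and 0.784 kb in 236R, against 0 kb in both control lines. Laptm5, a lysosomal protein of blood cells, had 8.90 kb of H3K4me2 in 236L and 1.88 kb in 236R, against 2.86 kb in 159-1 and 1.13 kb in 1014. H3K4me1 at Laptm5 followed another order, with 12.6 kb in 236L and 12.5 kb in 236R, against 16 kb in 159-1 and 34 kb in 1014.

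The next role takes in Fc receptors, signalling adaptors and related receptors. Its Fc receptors, Fcgr1 and Fcgr3, differed least in kb of H3K4me2 between 236L and 236R. H3K4me2 over the 6 genes of this role averaged 28.4% of the window in 236L and 10.8% in 236R, against 11.3% in 159-1 and 11.9% in 1014, and 5 of the 6 were called higher in 236L than in 236R (13.8% of all genes). Tyrobp, the adaptor DAP12, had 12.8 kb in 236L and 3.32 kb in 236R, against 2.75 kb in 159-1 and 3.13 kb in 1014. Trem2, a lipid receptor that signals through DAP12, had 4.81 kb in 236L and 0 kb in the other 3 lines. Both genes had their longest cover in 236L. Fcer1g, the common gamma chain of Fc receptors, had 7.60 kb in 236L and 2.69 kb in 236R, against 2.97 kb in 159-1 and 2.61 kb in 1014. Cd84, a receptor of the SLAM family, had 9.16 kb in 236L and 0 kb in 236R, against 0.484 kb in 159-1 and 0.347 kb in 1014. Fcgr1, the high-affinity IgG receptor, had 4.63 kb in 236L and 3.27 kb in 236R, against 3.64 kb in 159-1 and 4.95 kb in 1014, so that 1014 exceeded 236L. Fcgr3, a lower-affinity IgG receptor among similar neighbours, had 13.6 kb in 236L and 10.3 kb in 236R, against 11.1 kb in 159-1 and 10.8 kb in 1014, and was thus long in all 4 lines.

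The 5 receptors for uptake of particles and dead cells were all called higher in 236L than in 236R in both marks (13.8% of all genes for H3K4me2 and 30.8% for H3K4me1). H3K4me1 at Mertk, the kinase receptor for apoptotic cells, covered 59.2 kb in 236L and 4.2 kb in 236R, against 8.33 kb in 159-1 and 2.66 kb in 1014, and 55.0 kb is the largest difference between 236L and 236R among the 34 genes. Mrc1, the mannose receptor, had 8.64 kb of H3K4me2 in 236L and 3.92 kb in 236R, against 3.27 kb in 159-1 and 4.11 kb in 1014. The scavenger receptor Msr1 had 7.18 kb in 236L and 0 kb in 236R, against 0.389 kb in 159-1 and 0 kb in 1014. At Marco, a scavenger receptor of alveolar macrophages, H3K4me1 covered 23.7 kb in 236L and 0 kb in 236R, against 0 kb in 159-1 and 0.858 kb in 1014. Cd68, a lysosomal glycoprotein, had 13.3 kb of H3K4me2 in 236L, but also 7.12 to 8.27 kb in the other lines, in a window with 4 other genes.

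Receptors for microbial products gave the same order of lines. H3K4me2 at Tlr2, which senses bacterial lipoproteins, covered 11 kb in 236L and 1.64 kb in 236R, against 1.25 kb in 159-1 and 1.44 kb in 1014. At Tlr4, the receptor of lipopolysaccharide, it covered 9.13 kb in 236L and 2.35 kb in 236R, against 1.30 kb in 159-1 and 1.07 kb in 1014. Cd14, the co-receptor of TLR4, had 8.03 kb in 236L and 3.78 kb in 236R, against 3.39 kb in each control line. In all 3 genes 236L was above every other line, and the other lines lay close together.

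Adhesion proteins had little H3K4me2 outside 236L. Itgb2 encodes the integrin chain CD18, and H3K4me2 covered 19 kb of its window in 236L and 3.14 kb in 236R, against 1.66 kb in 159-1 and 0.782 kb in 1014. Its partner Itgam, the chain CD11b, had 5.02 kb in 236L and 0 kb in 236R, against 0.510 kb in 159-1 and 0 kb in 1014. Adgre1, which encodes the macrophage antigen F4/80, had 4.97 kb of H3K4me2 and 17.2 kb of H3K4me1 in 236L and 0 kb of both in each of the other 3 lines. Mean H3K4me2 over the 3 genes was 14.8% of the window in 236L and 1.89% in 236R, against 1.22% in 159-1 and 0.471% in 1014.

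At C1qb, C1qc and Lyz2 the control lines held part of the H3K4me2 cover and 236R was lower than both. The C1q chains start the classical complement pathway, and C1qb had 9.38 kb of H3K4me2 in 236L and 0 kb in 236R, against 2.32 kb in 159-1 and 2.4 kb in 1014. H3K4me1 covered on average 62.7% of the C1q windows in 236L and 29.4% in 236R, against 52.9% in 159-1 and 60% in 1014, but the genes differed. Against both control lines, 236L was higher at C1qb and C1qc and lower at C1qa, which had 13.8 kb in 236L and 10.9 kb in 236R, against 16.9 kb in 159-1 and 19.2 kb in 1014. Lyz2, the lysozyme of myeloid cells, had 12.8 kb of H3K4me2 in 236L and 0 kb in 236R, against 3.82 kb in 159-1 and 4.65 kb in 1014. Lyz1, a near-identical gene, lies in the same window, so that peaks of the pair are uncertain, and Lyz2 is also expressed by alveolar epithelial cells. At Ctss, the lysosomal protease cathepsin S, H3K4me2 covered 12.6 kb in 236L and 0.264 kb in 236R, against 1.74 kb in 159-1 and 3.07 kb in 1014.

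Of the last effector genes, Mpeg1, a pore-forming protein of phagocytes, had 10.9 kb of H3K4me2 in 236L and 0.208 kb in 236R, against 0.753 kb in 159-1 and 0.554 kb in 1014. Ncf1, a subunit of the phagocyte NADPH oxidase, had 7.05 kb in 236L and 2.18 kb in 236R, against 2.51 kb in 159-1 and 0.719 kb in 1014. Aif1, an actin-binding protein used as the microglial marker IBA1, had 9.24 kb in 236L and 7.39 kb in 236R, against 8.53 kb in 159-1 and 6.95 kb in 1014. Aif1 was therefore covered about alike in all lines, in a window that also holds Prrc2a and Lst1.

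The same difference was found at the start sites. RefSeq promoter entries, from 250 bases before to 50 bases after the start on GRCm38.p6 (mm10), matched 25 of the 34 genes. An H3K4me2 peak lay on 21 of these 25 promoters in 236L and on 7 in 236R, against 8 in 159-1 and 6 in 1014. Of the 17492 promoters in the table, 65.4% had a peak in 236L and 63.9% in 236R, against 63.6% in 159-1 and 62.3% in 1014. An H3K4me2 peak in 236L and in no other line lay on 15 of the 25 promoters, where 2.49% of all promoters had such a peak. The 15 were those of Ptprc, Ctss, Mrc1, Fcgr1, C1qb, Cd68, Fcer1g, Itgam, Lyz2, Trem2, Laptm5, Ncf1, Fcgr3, Cd84 and Mpeg1. Another 6 promoters, those of Mertk, Cebpa, Cebpb, Irf8, Irf5 and Tlr2, had H3K4me2 in all 4 lines, and no promoter had a peak in 236R alone. The 4 promoters without H3K4me2 in 236L were those of Cx3cr1, C1qc, Aif1 and Marco. For H3K4me1, 12 of the 25 had a peak in 236L and in no other line, and 10% of all promoters did.

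The promoters of Ptprc, Mrc1, Itgam, Trem2, Cd68 and Mpeg1 are examples from the 15 marked in 236L alone. H3K4me2 covered each of the 15 whole in 236L and not at all in the other 3 lines. Those shown were picked after their values were seen. Each is the 250 bases before the start, read 5′ to 3′ on the strand of the gene, from RefSeq on GRCm38.p6. Capitals mark matches, on either strand, to 3 motifs: GAGGAA, the core bound by PU.1, TGANTCA, the site of AP-1 factors, and TTGCNNAA, a site of C/EBP factors. The intervals are chr1:138175306-138175555 (minus strand) for Ptprc, chr2:14229164-14229413 (plus) for Mrc1, chr7:128062390-128062639 (plus) for Itgam, chr17:48346151-48346400 (plus) for Trem2, chr11:69666171-69666420 (minus) for Cd68 and chr19:12460520-12460769 (plus) for Mpeg1.
Ptprc: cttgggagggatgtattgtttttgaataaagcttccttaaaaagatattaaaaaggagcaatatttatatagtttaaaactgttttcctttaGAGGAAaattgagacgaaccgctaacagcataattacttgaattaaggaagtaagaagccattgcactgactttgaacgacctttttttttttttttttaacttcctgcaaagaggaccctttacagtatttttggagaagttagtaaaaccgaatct
Mrc1: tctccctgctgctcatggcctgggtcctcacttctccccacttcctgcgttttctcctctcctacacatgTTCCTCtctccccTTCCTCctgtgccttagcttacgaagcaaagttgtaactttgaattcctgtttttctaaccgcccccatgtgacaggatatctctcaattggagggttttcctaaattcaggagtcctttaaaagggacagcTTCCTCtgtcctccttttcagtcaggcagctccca
Itgam: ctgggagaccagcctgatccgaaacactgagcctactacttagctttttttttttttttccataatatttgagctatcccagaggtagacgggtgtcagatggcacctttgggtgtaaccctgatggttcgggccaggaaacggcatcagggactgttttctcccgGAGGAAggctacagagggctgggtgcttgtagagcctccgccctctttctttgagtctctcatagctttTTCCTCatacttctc
Trem2: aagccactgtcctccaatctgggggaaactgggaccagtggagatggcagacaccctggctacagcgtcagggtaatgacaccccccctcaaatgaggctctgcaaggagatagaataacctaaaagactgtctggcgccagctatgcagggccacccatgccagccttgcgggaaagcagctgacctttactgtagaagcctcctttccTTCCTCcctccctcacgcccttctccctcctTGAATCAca
Cd68: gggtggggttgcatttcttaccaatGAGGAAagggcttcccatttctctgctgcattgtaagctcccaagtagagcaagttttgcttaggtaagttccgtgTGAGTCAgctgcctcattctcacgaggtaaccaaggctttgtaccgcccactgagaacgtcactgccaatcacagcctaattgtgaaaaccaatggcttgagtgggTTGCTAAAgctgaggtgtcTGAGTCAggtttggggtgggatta
Mpeg1: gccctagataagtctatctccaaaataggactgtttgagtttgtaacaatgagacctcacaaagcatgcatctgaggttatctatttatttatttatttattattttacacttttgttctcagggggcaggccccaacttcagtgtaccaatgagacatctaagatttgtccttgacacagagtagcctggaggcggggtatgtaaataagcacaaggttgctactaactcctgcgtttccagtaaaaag

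GAGGAA or its reverse complement was found in 13 of the 25 windows (52%), and in 22.1% of the 17492 promoters cut to the same 250 bases. Mrc1 has 3 matches to it and Itgam has 2, while Mpeg1 has no match to any of the motifs searched. The longer form GAGGAAGT, which contains GAGGAA, was in 1 of the 25 (2.18% of all promoters). TGANTCA was in 3 (6.22% of all), among them Cd68 with 2 matches, and TTGCNNAA was in 2 (9.11% of all). The median GC content was 53.6% for the 25 windows and 55.2% for all promoters. A match is a run of letters and not a shown binding site, and PU.1, C/EBP and AP-1 were not mapped in these cells.

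Around the same 25 start sites, H3K4me2 in 236L covered up to 23 genes (92%) from 0.25 to 2 kb downstream of the start. The highest share at any distance within 10 kb was 28% in 236R, against 32% in 159-1 and 24% in 1014. H3K4me1 in 236L reached its highest share, 84%, at 3.75 to 4 kb downstream, beyond the H3K4me2 maximum, and was 52% at the start itself. Over all genes, H3K4me1 did not exceed 34.9% at any distance in 236L. H3K27me3 covered the start of 0% of the 25 genes in 236L and 8% in 236R, against 16% in 159-1 and 28% in 1014, and no promoter of the 25 had H3K27me3 in 236L alone (3.41% of all promoters did).

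**Figure D3:**
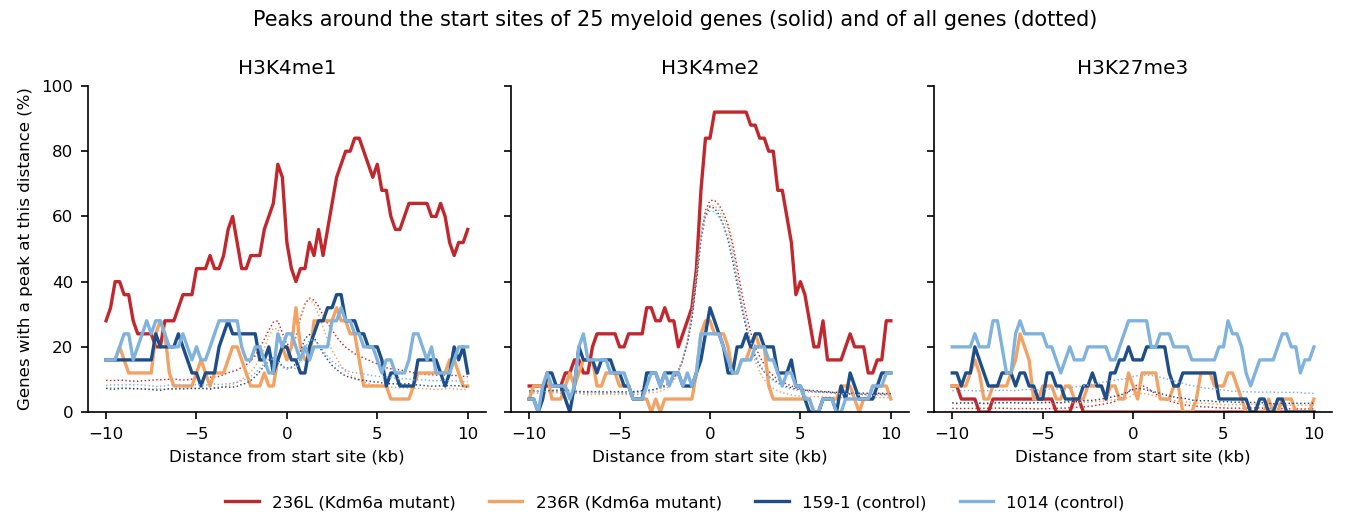
Share of 25 macrophage genes (solid lines) and of all genes with a promoter entry (dotted lines) that lie under a peak (%), by distance from the start site (kb, downstream to the right), for H3K4me1, H3K4me2 and H3K27me3 in each line. In 236L the H3K4me2 curve forms a plateau at 92% just downstream of the start, above the dotted curves, and in the other 3 lines it does not exceed 32%.

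The H3K4me2 peaks of 236L at these genes were wide. An H3K4me2 peak lay at 34 of the genes in 236L and 26 in 236R, against 31 in 159-1 and 28 in 1014. The medians here are over those genes only, so the sets of genes differ between lines. The widest H3K4me2 peak had a median width of 5.43 kb in 236L and 1.78 kb in 236R, against 1.35 kb in 159-1 and 1.77 kb in 1014. The median of all H3K4me2 peaks in 236L is 1.01 kb. The fold enrichment over input that the authors gave for the strongest peak had a median of 8.16 in 236L and 11.2 in 236R, against 6.38 in 159-1 and 7.71 in 1014. Over all H3K4me2 peaks of each list the median fold also differed, at 4.81, 6.23, 4.75 and 5.25 in the same order of lines. Within their own lists the strongest H3K4me2 peaks at these genes had a median percentile of 68.8 in 236L and 78.2 in 236R, against 64.8 in 159-1 and 69.2 in 1014. For H3K4me1, 236L was highest in both measures. The strongest H3K4me1 peak had a median fold of 6.71 in 236L and 5.11 in 236R, against 4.68 in 159-1 and 4.47 in 1014. Its median percentile was 94.9 in 236L and 84.5 in 236R, against 87.3 in 159-1 and 81.3 in 1014. At Spi1 the strongest H3K4me2 peak had a fold of 7.59 in 236L and its widest peak there spanned 10.8 kb, while the strongest peak in 236R had a fold of 16.8.

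Most of the length marked in 236L was marked in no other line. Over the merged windows, H3K4me2 covered 317 kb in 236L, of which 73.7% lay under no H3K4me2 peak of the other 3 lines, and over the genome this share was 28.9%. In 236R 6.99% of the 83.3 kb was found in no other line. For H3K4me1 the unshared portion in 236L was 80.7% of 545 kb, and 61.1% over the genome. Where both marks were present in 236L they overlapped, with 74.3% of the H3K4me2 length at these genes also under H3K4me1 (56.4% over the genome).

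H3K27me3 covered many of these genes in the other 3 lines and few in 236L. Its mean cover was 1.49% of the window in 236L and 8.29% in 236R, against 8.03% in 159-1 and 18.3% in 1014, with 1.68, 2.67, 3.16 and 6.43% over all genes in the same order. A peak was found at 4 of the 34 genes in 236L and at 18 in 236R, against 14 in 159-1 and 19 in 1014, where 21.1, 23.6, 20.8 and 31.3% of all genes had a peak in the same order. In 236L those 4 were Fcgr3 (11.5 kb) and the 3 C1q genes. The list of 236L is the shortest of the 4, and the mean difference between 236L and 236R, -6.8 points, was -1.78 at equal covered length and -0.18 with peaks of q up to 0.001.

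At 11 genes H3K27me3 was lower in 236L than in 236R by at least 2 kb, where 8.96% of all genes were, and at 1, C1qa, it was higher (5.42% of all genes). Against both control lines 236L was lower at 10 genes (10.1% of all genes) and higher at 1 (4.02% of all genes). Csf1r had 0 kb in 236L and 19.5 kb in 236R, against 11.2 kb in 159-1 and 21.5 kb in 1014. Spi1 had 0 kb in 236L and 14.3 kb in 236R, against 10.5 kb in 159-1 and 11 kb in 1014. Cx3cr1 had 0 kb in 236L and 24.9 kb in 236R, against 2.25 kb in 159-1 and 4.94 kb in 1014. At these 3 genes 236R carried at least as much H3K27me3 as 159-1, and 236L carried none. The promoters of Itgam and Trem2 printed above lay whole under H3K27me3 in 236R, 159-1 and 1014.

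Longer H3K4me2 cover in 236L was found both at genes with and at genes without H3K27me3 in the other lines. Of the 16 genes with at least 2 kb of H3K27me3 in 236R, 159-1 or 1014, 14 were called higher in H3K4me2 in 236L than in 236R, and of the 18 with less, 15 were. Ctss, Mrc1, Lyz2, Msr1, Tlr4 and Mpeg1 are among the 11 genes with no H3K27me3 peak in any line. Of the H3K4me2 length in 236L at these genes, 33.8% lay on H3K27me3 of another line, and 12.1% did over the genome.

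**Figure D4:**
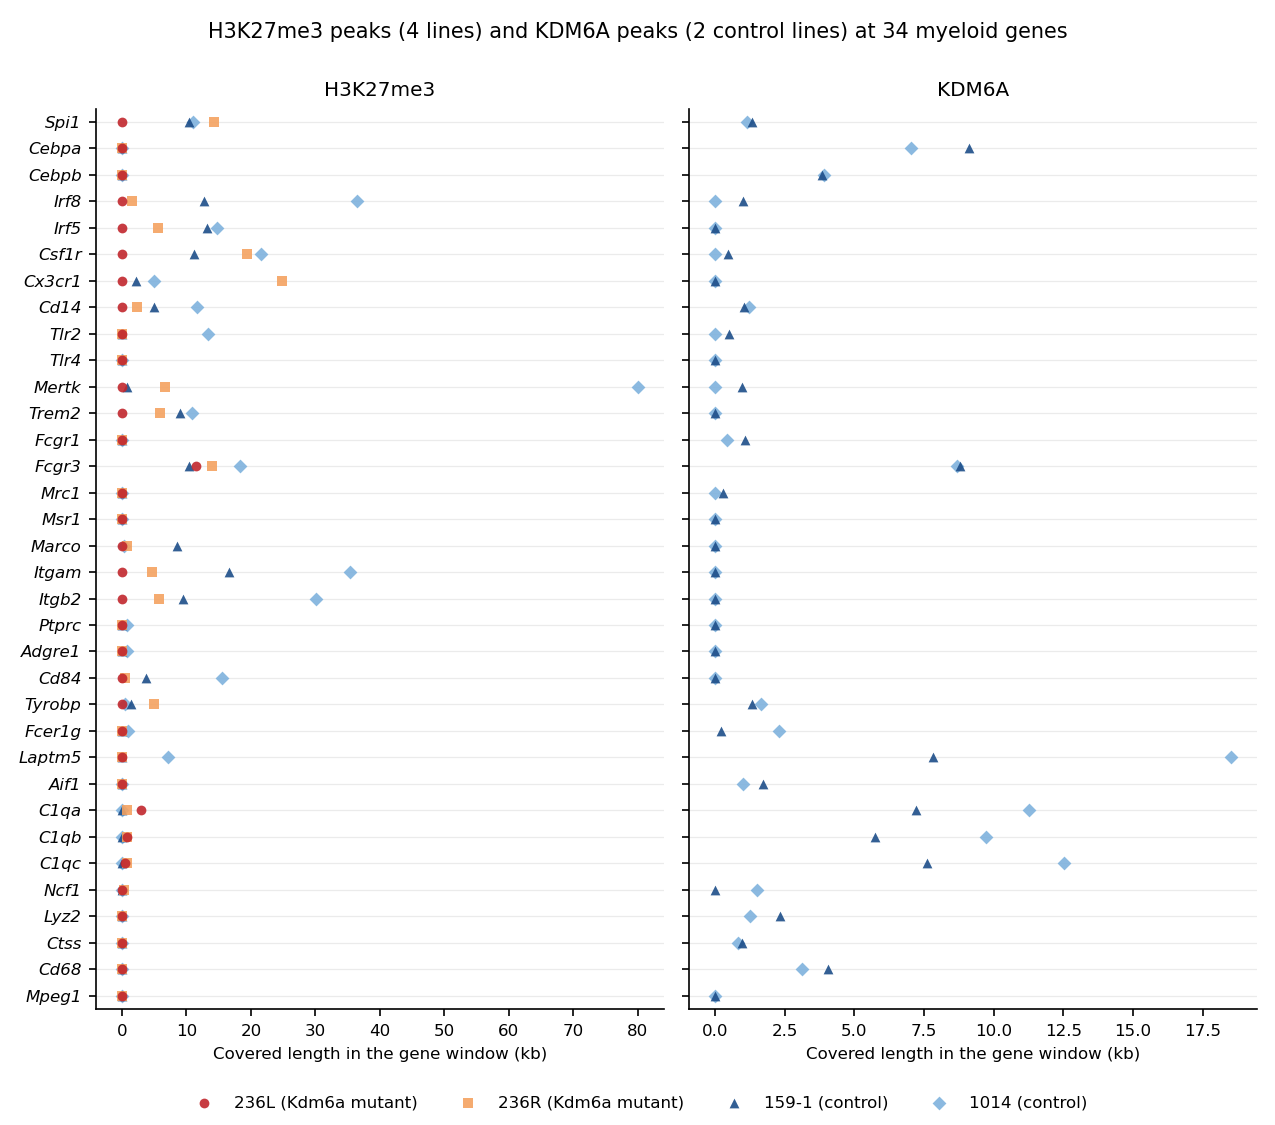
Covered length (kb) of the 34 gene windows by H3K27me3 in 4 lines (left) and by KDM6A in the 2 control lines (right), with a symbol for each line. H3K27me3 is at 0 kb in 236L at 30 genes, and KDM6A cover is longest at Laptm5, the C1q genes, Cebpa and Fcgr3.

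KDM6A in the control lines lay at part of these genes. Its mean cover was 7.3% of the window in 159-1 and 9.21% in 1014, where all genes had 3.81 and 3.26%. The median cover went the other way, at 1.49 and 0.695%, where all genes had 1.81 and 1.39%. Long cover at part of the genes thus raised the mean, among them the C1q genes, whose windows overlap. A peak was found in both control lines at 16 of the 34 genes, in 1 control line at 6 and in neither at 12, where 62.3% of all genes had a peak in both. Of the 25 promoters, 16% had a KDM6A peak in 159-1 and 20% in 1014, where 46.6 and 44.1% of all promoters did. Cebpa had 9.13 kb of KDM6A in 159-1 and 7.02 kb in 1014, and Laptm5 had 7.84 and 18.5 kb. The strongest KDM6A peak at Laptm5 had a fold of 4.99 in 159-1, at percentile 91.6 of its list. In 1014 that fold was 2.51, at percentile 1.24, so the long cover there is of weak peaks. At C1qc the cover was 7.63 and 12.5 kb in the same order. The 12 genes without KDM6A were Ptprc, Adgre1, Cx3cr1, Itgam, Itgb2, Trem2, Irf5, Msr1, Marco, Tlr4, Cd84 and Mpeg1. Of these, 10 were called higher in H3K4me2 in 236L than in 236R (13.8% of all genes). The genes with KDM6A in 1 or both control lines were called likewise, except Fcgr1, Aif1 and Cebpa. Of all H3K4me2 length of 236L at these genes, 15.7% lay on KDM6A of a control line, and 28.9% did over the genome. Of the H3K4me2 length marked in 236L and in no other line, 6.3% lay on KDM6A of a control line at these genes, and 1.81% over the genome. For H3K4me1 the order was the reverse, with 2.48% at these genes and 3.92% over the genome.

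The comparison of genotypes turned on 236L. H3K4me2 covered 18 ± 13.8% of the windows in the mutant lines and 10.4 ± 0.426% in the control lines (SD, n = 2 lines each), a difference of 7.58 percentage points that is smaller than the SD of the mutant lines. Without 236L it was -2.18 points and without 236R 17.3 points. For H3K4me1 the means were 27.2 ± 22% in mutant and 16.4 ± 1.92% in control lines (SD, n = 2 each), a difference of 10.7 points that was -4.83 without 236L and 26.3 without 236R. With 2 lines against 2 the smallest p of an exact two-sided permutation test is 0.333, so no difference can pass 0.05 by that test.

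Counted by gene at the 2 kb separation, 0 of 34 had more H3K4me2 in both mutant lines than in both control lines (1.36% of all genes) and 1, Cebpa, had less (6.37% of all genes). Without 236R the count with more was 30, and without 236L it stayed at 0. For H3K4me1, 1 gene had more by at least 2 kb (Cx3cr1, 5.3% of all genes) and 3 had less (C1qa, Cebpa and Laptm5, 7.45% of all genes), and the count with more was 31 without 236R and 1 without 236L. In 236R alone, H3K4me1 was below both control lines at 8 genes (12.6% of all genes), namely Ctss, Fcgr1, C1qa, C1qb, C1qc, Lyz2, Cebpa and Laptm5. H3K4me2 was lower there at 4 genes (9.65% of all genes), C1qb, C1qc, Lyz2 and Cebpa.

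H3K27me3 averaged 4.89 ± 4.81% in mutant and 13.2 ± 7.28% in control lines (SD, n = 2 each), a difference of -8.29 points that is -4.89 without 236L. At 7 genes, Itgam, Itgb2, Trem2, Cd14, Irf8, Irf5 and Cd84, both mutant lines lay below both control lines by at least 2 kb, where 6.43% of all genes did, and 0.425% of all genes and none of the 34 had more. Without 236L the count with less was also 7, and 3 genes, Spi1, Tyrobp and Cx3cr1, had more in 236R than in both control lines (2.12% of all genes). Itgam, for example, had 0 kb in 236L and 4.72 kb in 236R, against 16.6 kb in 159-1 and 35.3 kb in 1014. When each list was cut to its strongest peaks up to an equal covered length, the difference was -0.166 points and the count was 1. The lists themselves differ in length in the same order, with 10039 peaks in 236L and 25230 in 236R, against 31655 in 159-1 and 52080 in 1014.

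A limma test over all genes, on log2(kb + 1), called 0 genes at an adjusted p of 0.05 in any of the 3 marks. The lowest adjusted p among the macrophage genes was 0.485 for H3K4me1, 0.151 for H3K4me2 and 0.235 for H3K27me3. At an unadjusted p of 0.05 or less, limma picked 1 of the 34 genes tested for H3K4me1 (1634 of 16559 genes), 2 of 34 for H3K4me2 (2778 of 17158) and 3 of 17 for H3K27me3 (849 of 6482).

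Other genes of the myeloid programme followed the same order of lines. Of 76 further myeloid genes, H3K4me2 was higher in 236L than in 236R at 55 and lower at 0, where 13.8% and 8.14% of all genes were. H3K4me1 was higher at 62 and lower at 2, where 30.8% and 17.4% of all genes were. Mean H3K4me2 cover of this list was 19.2% in 236L and 5.54% in 236R, against 5.66% in 159-1 and 5.83% in 1014. The genes named from this and the following lists are those with the longest mean H3K4me2 cover over the 4 lines, a choice that a high value in 236L alone can fix, so their values only describe them. Syk, the kinase downstream of Fc receptor adaptors, had 32.7 kb of H3K4me2 in 236L and 1.48 kb in 236R, against 1.27 kb in 159-1 and 1.06 kb in 1014. Its H3K27me3 cover was 0.629 kb in 236L and 27.7 kb in 236R, against 35.8 kb in 159-1 and 16 kb in 1014. Runx1, a factor of blood cell development, had 28.7 kb of H3K4me2 in 236L and 11.2 kb in 236R, against 14.9 kb in 159-1 and 13.9 kb in 1014. Pparg, a nuclear receptor of alveolar macrophages and fat cells, had 15.9 kb in 236L and 4.07 kb in 236R, against 6.68 kb in 159-1 and 7.56 kb in 1014.

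Of 20 genes used by leukocytes in general, 17 were higher in 236L than in 236R in H3K4me2 (13.8% of all genes) and 17 in H3K4me1 (30.8%). Lcp1, an actin-bundling protein of leukocytes, had 29.3 kb of H3K4me2 in 236L and 1.81 kb in 236R, against 1.33 kb in 159-1 and 1.49 kb in 1014. Coro1a, which also acts on actin, had 9.33 kb in 236L and 9.49 kb in 236R, against 9.17 kb in 159-1 and 8.71 kb in 1014, and was about alike in all lines. Genes of other cell types were counted in the same way. H3K4me2 was higher in 236L than in 236R at 2 of 22 T and NK cell genes, 2 of 14 B cell genes, 4 of 19 neutrophil and mast cell genes, 2 of 14 fibroblast genes, 0 of 14 endothelial genes and 0 of 16 neuroendocrine genes. These counts stand beside 13.8% of all genes. For H3K4me1 the counts were 3 of 22, 5 of 14, 9 of 19, 2 of 14, 4 of 14 and 0 of 16 in the same order of lists, beside 30.8% of all genes, so the neutrophil and mast cell list (47.4%) and the B cell list (35.7%) exceeded that share. The difference between lists was not tested.

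Defining factors of B and T cells had no more H3K4me2 in 236L than in 236R. Pax5, the factor of B cells, had 8.18 kb of H3K4me2 in 236L and 12.1 kb in 236R, against 4.98 kb in 159-1 and 6.34 kb in 1014, so that 236L lay above both control lines, as it did in H3K4me1 with 9.28 kb in 236L and 19.1 kb in 236R, against 6.9 kb in 159-1 and 4.57 kb in 1014. Bcl11b, a factor of T cells, had 7.77 kb in 236L and 11.9 kb in 236R, against 8.22 kb in 159-1 and 12.1 kb in 1014. The neutrophil protease Elane had 3.92 kb of H3K4me2 in 236L and 3.86 kb in 236R, against 3.56 kb in 159-1 and 2.13 kb in 1014. Its H3K4me1 cover was longest in 236L, with 9.46 kb in 236L and 5.95 kb in 236R, against 4.23 kb in 159-1 and 6.69 kb in 1014. Prtn3 of the same list was also alike in H3K4me2, with 6.51 kb in 236L and 6.37 kb in 236R. Gata2 and Hdc of that list were called higher in 236L than in 236R. Gata2 had 9.92 kb in 236L and 7.28 kb in 236R, against 7.64 kb in 159-1 and 5.84 kb in 1014. Hdc had 5.42 kb in 236L and 2.23 kb in 236R, against 5.37 kb in 159-1 and 2.54 kb in 1014. Neuroendocrine genes had the opposite order, with H3K4me2 lower in 236L than in 236R at 12 of 16 (8.14% of all genes) and H3K4me1 at 11 (17.4%), and with H3K27me3 higher at 6 (5.42%). Sez6, for example, had 14.8 kb of H3K27me3 in 236L and 0 kb in the other 3 lines. How far these changes at neuroendocrine genes and those at macrophage genes in 236L go together in the same cells was not tested.

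**Figure D5:**
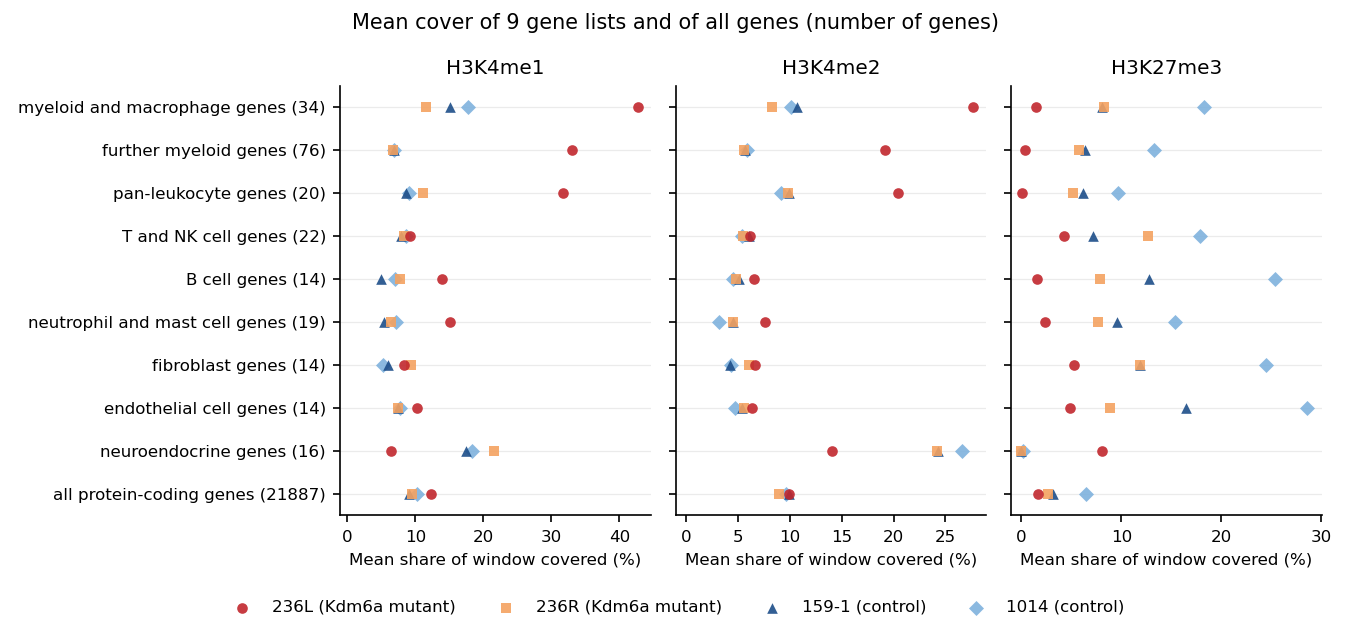
Mean share of the gene window covered (%) for 9 gene lists and for all protein-coding genes, with the number of genes in parentheses and a symbol for each line, in panels for H3K4me1, H3K4me2 and H3K27me3. In 236L the 3 myeloid and leukocyte lists stand apart (H3K4me2 of 19.2 to 27.7%) and the neuroendocrine list lies below the other 3 lines (14.1%).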

How the data were processed

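ChIP-seq was done on 4 mouse small cell lung cancer lines, with H3K4me1, H3K4me2 and H3K27me3 in all of them and KDM6A in 2. Reads were aligned to mm10 with Bowtie2 2.4.2 and broad peaks called with MACS3 3.0.0a7 for each sample, per the submitters' processing notes. Each deposited list holds, per peak, a fold enrichment ratio over input, a −log10 p and −log10 q, and an integer score, as the authors' caller wrote them. Every deposited peak had a −log10 q of 1.01 or more. The lists hold no counts, so depth is unknown and no interval can be given.

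Peaks on chromosomes 1 to 19 and X and Y were used, and 337 peaks on other sequences were set aside. Overlapping peaks were merged per library, and the covered length was summed over each gene and its 10 kb flanks for 21887 protein-coding genes of RefSeq (GRCm38.p6). Genes were called at a separation of 2 kb between every line of the groups. limma 3.58.1 in R 4.3.3 was run on log2(kb + 1) over genes with a mean of at least 0.5 kb, with Benjamini-Hochberg adjustment, as an alternative. Covers and tests were tested on simulated data. The analysis used Python 3.11.15, pandas 2.3.3 and numpy 2.4.6.

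H3K4me1 has its own input libraries in the labels, so each mark was analysed alone, and both genotypes are in every mark. The macrophage genes, the other lists and the tests were chosen with earlier results of these data known. All 34 genes could be named. In each further list the 4 genes with the longest mean H3K4me2 cover over the lines could be named. Printed promoters were chosen after their values were seen. For genes with several promoter entries the first was used. Promoter sequences are from RefSeq.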

Additional observations from a re-analysis of the deposited data

How the results depend on the processing

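Of 140 alternative values for 18 results, 97 stayed within 1.5 times the count or 1 SD of the value reported, 43 moved, and no gene count can change sign. The genotype differences in H3K4me1 and H3K4me2 cover, which are smaller than the SD of the mutant lines, turned negative without 236L. These changes still count among the 97, because they lie within that SD. So does the H3K27me3 difference between 236L and 236R, which went from -6.8 to -0.18 points with peaks of q up to 0.001. The 97 is therefore not a measure of stability for differences smaller than their SD. The counts of genes higher in 236L than in 236R were 22 to 31 for H3K4me1 and 20 to 31 for H3K4me2 over the alternatives. With windows of 50 kb on each side, genes higher in both mutant lines numbered 9 for H3K4me1, 3 for H3K4me2 and 3 for H3K27me3, those lower for H3K4me1 numbered 5, and H3K27me3 was higher in 236L than in 236R at 5. The mean difference between 236L and 236R was then 17 points for H3K4me1 and 7.92 for H3K4me2. At gene ends alone (2.5 kb around them), 0 genes were higher and 0 lower in both mutant lines for H3K4me1 and 0 lower for H3K4me2, H3K27me3 was lower at 3 and higher in 236L than in 236R at 0, KDM6A lay at 10 genes in both control lines, and H3K4me2 differed by 35.3 points between 236L and 236R. With peaks of q up to 0.001, H3K4me2 was higher in both mutant lines at 1 gene and H3K27me3 lower at 0 and higher in 236L than in 236R at 0, with differences of 28.5 points for H3K4me1 and 18.5 for H3K4me2. At equal covered length, 2 genes were higher in both mutant lines for H3K4me1 and 2 for H3K4me2, 1 was lower for H3K27me3, the differences between 236L and 236R were 28.9 and 18.9 points, and that of genotypes in H3K27me3 was -0.166 points. With a separation of 5 kb the counts were 0 higher and 0 lower for H3K4me1, 0 lower for H3K4me2, 3 lower for H3K27me3 and 0 higher in 236L than in 236R for H3K27me3. limma gave 0 in each direction for each mark. The shares of all genes were not counted with the other windows, peak cuts or separation. Those counts alone therefore do not set the macrophage genes apart from other genes. The causes were not tested.

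Leaving out each line in turn gave 1 to 31 genes higher and 3 to 8 lower for H3K4me1, 0 to 30 higher and 1 to 4 lower for H3K4me2, and 0 to 3 higher and 7 to 12 lower for H3K27me3. The mean difference between genotypes ranged from -4.83 to 26.3 points for H3K4me1, from -2.18 to 17.3 for H3K4me2 and from -13.4 to -3.14 for H3K27me3. The highest counts for H3K4me1 and H3K4me2 came without 236R, the 12 for H3K27me3 without 159-1. The count of promoters with H3K4me2 in 236L alone, an alternative set chosen after seeing the data, was 15 under all settings run. No paired analysis was possible because the replicate numbers were given in accession order only and the lines differ between genotypes.

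Peak lists show where a mark passed the caller's threshold and not how strong it was between libraries, and the number of peaks limits H3K27me3 above all. With 2 lines per genotype no exact test can pass 0.05.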

Other observations

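Genes outside the myeloid lists also had long H3K4me2 cover in 236L. Those named here were picked after their values were seen, among genes with a large difference between 236L and 236R but not in order of it. Zmiz1 (33.3 kb), Nfix (28.9 kb) and Mbnl1 (27.7 kb), which are in none of the lists, had larger differences than Fpr1 (20.1 kb), Cd44 (21.2 kb) and Fyb (19.9 kb). Fpr1, a receptor of neutrophils and monocytes for formylated peptides, had 20.1 kb in 236L and 0 kb in the other 3 lines. Cd44, a hyaluronan receptor, had 22.9 kb in 236L and 1.76 kb in 236R, against 0.994 kb in 159-1 and 0 kb in 1014. Fyb, an adaptor of T cells and myeloid cells, had 22.2 kb in 236L and 2.21 kb in 236R, against 0.209 kb in 159-1 and 0.32 kb in 1014. The largest difference, 37.7 kb, was at Tcf4, a broadly used transcription factor, with 66.8 kb in 236L and 29.1 kb in 236R, against 20.4 kb in 159-1 and 38.4 kb in 1014. Tcf4 has a window of 365 kb, and the ranking by kb was not adjusted for window length.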
